A study of Rattus norvegicus with 18 samples.

Results

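The genes described here are 10 genes of the enteroendocrine cells of the gut: the granule proteins Chga and Chgb, the hormone genes Gip, Sct, Cck, Nts, Pyy and Gcg, the tachykinin gene Tac1, and Tph1, which makes the serotonin precursor. A gene was taken up where a probe set of the deposited table had exactly 1 gene symbol in the array's annotation and that symbol was its own, and 9 of the 10 genes had such a probe set, 1 each, among 31099 probe sets and 14217 named genes. No probe set carried the symbol Tph1 in the annotation used, so Tph1 is not analysed here. RNA from scraped jejunal mucosa of male Sprague Dawley rats, 6 to 8 weeks old, was measured on 18 Affymetrix arrays, 3 for each of 6 groups. The rats were gavaged once daily with abemaciclib at 120 or 36 mg/kg/day, ribociclib at 300 mg/kg/day, palbociclib at 100 or 30 mg/kg/day, or vehicle. All 3 compounds inhibit the cyclin-dependent kinases CDK4 and CDK6. The series asks how these compounds harm the intestine, and its title states that the harm is independent of their primary action. The design gives dosing periods of 4 and 15 days without tying either to an array. The vehicle group received methyl cellulose alone, which was the carrier of palbociclib, while abemaciclib and ribociclib were given in a citrate-buffered cellulose carrier with a detergent. A compound and its carrier therefore cannot be told apart when abemaciclib or ribociclib is set against vehicle. The title of replicate B of the abemaciclib 120 group gives 100 mg/kg, while its treatment label gives 120, and the treatment label was used.

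Enteroendocrine cells are scattered singly through the gut epithelium, arise from the same stem cells as enterocytes and goblet cells, and release peptide hormones from dense granules when nutrients arrive. Their hormones follow the length of the gut. Gip, Sct and Cck are known mainly from the duodenum and upper jejunum, and Nts, Pyy and Gcg rise towards the ileum. Chromogranins A and B are granule proteins that most of these cells share, whichever hormone they make.

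The promoters of 4 of the genes are shown because Chgb and Gip are the members that changed against vehicle and Nts and Pyy are distal hormone genes that were low on the same pair of arrays. They are RefSeq sequences on the GRCr8 build, from 250 bases before to 50 bases after the gene's start, read in the direction of the gene. The regions are chr3:140496462-140496761 on the plus strand, chr10:81464820-81465119 on the plus strand, chr7:39460839-39461138 on the minus strand and chr10:87562421-87562720 on the minus strand. Capitals mark every match, on either strand, of TATAA (the TATA box core), GATAA (the core of GATA factor sites), TTTAT (the core of caudal factor sites) and TGACG (a half-site for cAMP response factors).
Chgb: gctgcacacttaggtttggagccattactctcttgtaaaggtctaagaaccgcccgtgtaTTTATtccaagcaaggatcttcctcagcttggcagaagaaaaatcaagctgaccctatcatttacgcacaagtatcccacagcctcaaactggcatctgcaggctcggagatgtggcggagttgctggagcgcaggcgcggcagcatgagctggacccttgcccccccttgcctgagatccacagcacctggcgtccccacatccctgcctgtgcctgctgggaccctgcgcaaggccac
Gip: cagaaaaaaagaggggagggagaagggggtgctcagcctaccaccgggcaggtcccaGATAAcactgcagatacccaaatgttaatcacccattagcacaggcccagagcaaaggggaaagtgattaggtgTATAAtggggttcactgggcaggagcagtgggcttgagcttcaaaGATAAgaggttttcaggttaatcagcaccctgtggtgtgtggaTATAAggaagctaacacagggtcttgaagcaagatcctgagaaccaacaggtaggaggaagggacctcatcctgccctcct
Nts: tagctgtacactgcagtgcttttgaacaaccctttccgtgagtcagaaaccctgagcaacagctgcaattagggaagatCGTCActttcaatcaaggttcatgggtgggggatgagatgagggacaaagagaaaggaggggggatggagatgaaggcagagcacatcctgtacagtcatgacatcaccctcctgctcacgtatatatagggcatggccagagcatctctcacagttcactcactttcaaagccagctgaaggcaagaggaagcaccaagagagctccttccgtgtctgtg
Pyy: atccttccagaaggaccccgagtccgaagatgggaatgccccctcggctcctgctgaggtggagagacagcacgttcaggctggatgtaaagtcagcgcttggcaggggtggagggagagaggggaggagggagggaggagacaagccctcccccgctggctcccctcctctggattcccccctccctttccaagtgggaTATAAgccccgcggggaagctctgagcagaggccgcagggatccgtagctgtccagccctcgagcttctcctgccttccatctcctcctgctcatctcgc
The Gip promoter had TATAA at -31 to -27 and at -119 to -115 from the start, and GATAA at -74 to -70 and at -193 to -189. The Pyy promoter had TATAA at -50 to -46, the Chgb promoter had TTTAT at -190 to -186, and the Nts promoter had TGACG on its other strand at -171 to -167. Over 33469 rat promoters of the same length, TATAA matched in 26.2%, GATAA in 26.5%, TTTAT in 42.5% and TGACG in 21.2%, so each match is a common one and is given as a description. TATAA and TTTAT can overlap, but no printed match does. Of the 9 measured genes, 6 were in the promoter table, and Chga, Cck and Sct were not.

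Signals are the deposited log2 values, so a step of 1 is a doubling. The array medians lay between 5.40 and 5.51, and no pair of arrays was identical. The marker levels fitted the mucosal part of the tissue label. The mean of 13 enterocyte markers lay between 12.40 and 13.31 on every array, and that of 10 goblet cell markers between 11.14 and 12.18. The site along the gut was not checked by these markers. Of the 9 measured genes Nts had the highest signal, with a mean at percentile 96.2 of all genes, followed by Gip at percentile 93.7. Tac1 was the dimmest at percentile 49.0. Signals of different probe sets do not rank transcript amounts, so each gene is compared only with itself. In a tissue scraping, fewer enteroendocrine cells and less hormone RNA per cell cannot be told apart. The labels do not say that arrays of a group came from different rats, so a p-value here reflects variation among arrays, which may be technical, and an exact permutation test of 3 against 3 arrays could not go below p = 0.1.

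Across the 6 groups, 4 of the 9 measured genes differed (limma's F test, adjusted p under 0.05), where 22.6% of all genes did. They were Gip (adjusted p = 0.00657), Chgb (adjusted p = 0.00752), Chga (adjusted p = 0.0284) and Sct (adjusted p = 0.0301), all by limma. Nts, Pyy, Cck, Gcg and Tac1 did not pass, with adjusted p-values between 0.189 and 0.380 by limma. This test sets variation between groups against variation inside them, so the split reflects both. Nts, Pyy and Cck spread most in abemaciclib 36, with a standard deviation of 2.23, 2.26 and 1.73 log2 units among its 3 arrays. For the genes that passed, the largest standard deviation inside a group was 0.91 for Gip, 0.60 for Sct, 0.42 for Chga and 0.37 for Chgb.

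**Figure D1:**
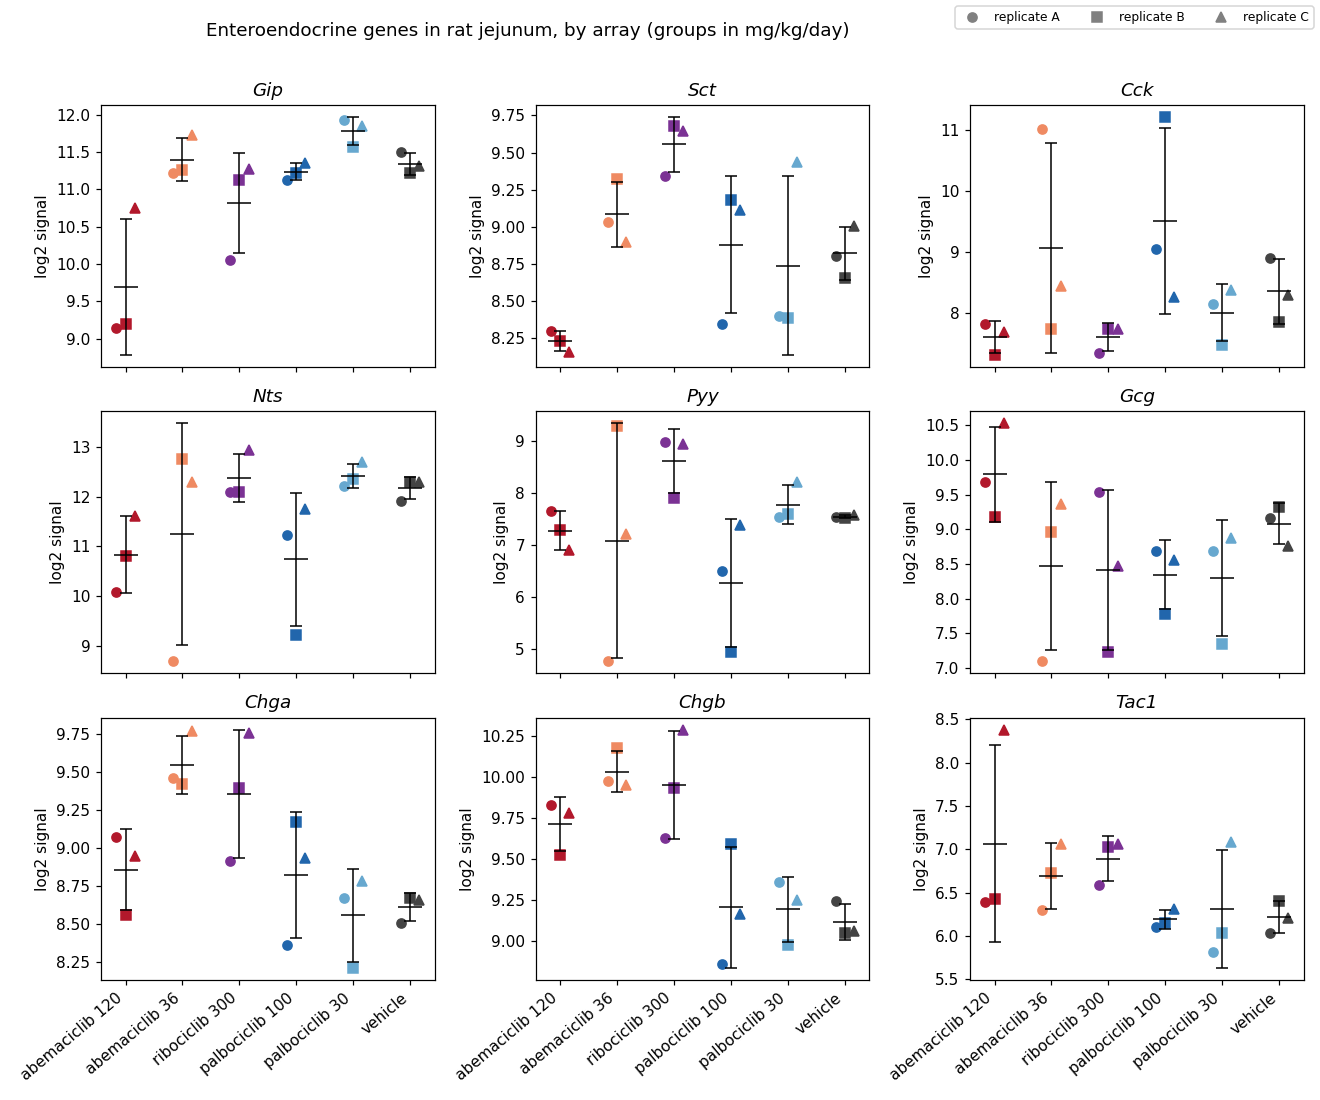
Log2 signal of the 9 measured enteroendocrine genes (vertical axes) on each of the 18 arrays, by treatment group in mg/kg/day (horizontal axes). Symbols are arrays, horizontal lines are group means and bars are ± 1 SD (n = 3). Chgb and Chga are high with abemaciclib 36 and ribociclib 300, and Gip is low with abemaciclib 120. Nts and Cck each have 1 far array in abemaciclib 36 and in palbociclib 100, and Pyy is spread widely in both of these groups.

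Of the granule proteins, Chgb passed with abemaciclib at the lower dose and with ribociclib, and Chga did not pass against vehicle in any group. Chgb, chromogranin B, had log2 signals of 9.98, 10.18 and 9.95 with abemaciclib 36, against 9.25, 9.05 and 9.06 with vehicle. With ribociclib 300 it had 9.63, 9.94 and 10.29. All 6 of these treated arrays lay above all 3 vehicle arrays. Chgb rose by 0.92 log2 units with abemaciclib 36 (1.89-fold, SE 0.21, 95% interval 0.48 to 1.36, limma adjusted p = 0.0311) and by 0.83 with ribociclib 300 (1.78-fold, SE 0.21, 95% interval 0.40 to 1.27, limma adjusted p = 0.0379). It was 1 of 9 measured genes that passed in each of these comparisons, where 2.08% of all genes passed with abemaciclib 36 (0.499% higher and 1.58% lower) and 3.73% with ribociclib 300 (0.999% higher and 2.74% lower). With abemaciclib 120 the signals were 9.83, 9.53 and 9.78, again above every vehicle array, and the difference of 0.59 (SE 0.21) had a limma adjusted p of 0.0573. Palbociclib gave Chgb means of 9.21 ± 0.37 at 100 mg/kg/day and 9.20 ± 0.20 at 30 mg/kg/day, beside 9.12 ± 0.11 with vehicle (SD, n = 3 each), and the arrays overlapped.

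Chga, chromogranin A, followed Chgb from array to array without passing the threshold in any single comparison. Its signals were 9.46, 9.42 and 9.76 with abemaciclib 36 and 8.91, 9.39 and 9.76 with ribociclib 300, against 8.51, 8.67 and 8.66 with vehicle. None of these 6 treated arrays reached down to the vehicle arrays. The differences were 0.94 log2 units (SE 0.25, limma adjusted p = 0.0628) with abemaciclib 36 and 0.74 (SE 0.25, limma adjusted p = 0.106) with ribociclib 300. With abemaciclib 120 the signals were 9.07, 8.56 and 8.95, which overlapped vehicle, and the difference was 0.25 (SE 0.25). Over the 18 arrays the Pearson correlation of Chga with Chgb was 0.89, and it was 0.81 on deviations from the group means. The arrays share 1 normalization and their groups, and the value is a description. By the same measure the genes most like Chgb over the 18 arrays were Chga, Hspa13 (0.88) and Sde2 (0.875).

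**Figure D2:**
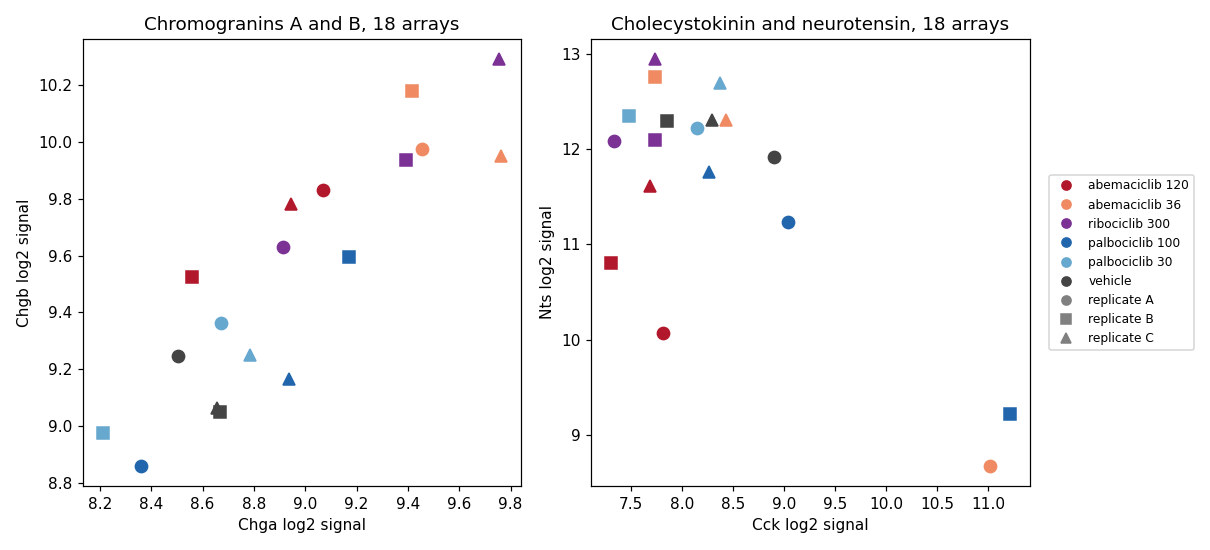
Log2 signals of Chga (horizontal) and Chgb (vertical) on the left and of Cck (horizontal) and Nts (vertical) on the right, 1 point per array, coloured by group with the symbol giving the replicate letter. Chga and Chgb rise together over all 18 arrays, while Cck and Nts are set apart by abemaciclib 36 replicate A and palbociclib 100 replicate B.

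The Chgb calls were lost in most fits that left out an array of the compared groups. With any 1 array of the abemaciclib 36 or vehicle group left out, the adjusted p for abemaciclib 36 lay between 0.0556 and 0.134 (limma), and for ribociclib it lay between 0.0624 and 0.139 (limma) in 5 of 6 such fits, those without vehicle A, B or C or ribociclib B or C, and was 0.0135 (limma) without ribociclib A.

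Gip, which encodes the incretin made by K cells, was the member that fell with abemaciclib at the higher dose. Its log2 signals were 9.14, 9.20 and 10.75 with abemaciclib 120, against 11.50, 11.22 and 11.31 with vehicle. Every abemaciclib 120 array lay below every vehicle array, with replicate C the closest. Gip fell by 1.65 log2 units (3.14-fold lower, SE 0.36, 95% interval -2.41 to -0.89, limma adjusted p = 0.00445). It was the 1 gene of 9 that passed in this comparison, where 18% of all genes passed (9.6% higher and 8.41% lower). The call held in each fit with 1 array of either group left out, with differences between -2.18 and -1.37 and limma adjusted p-values up to 0.0338.

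At 36 mg/kg/day of abemaciclib, Gip was at 11.21, 11.26 and 11.72, which overlapped the vehicle arrays. The 2 doses of abemaciclib differed by -1.70 log2 units for 120 over 36 mg/kg/day (3.26-fold lower, SE 0.36, limma adjusted p = 0.00803), the 1 call among 9 measured genes where 7.59% of all genes passed (4.82% higher and 2.77% lower). Without abemaciclib 120 replicate A this limma adjusted p was 0.0605. With ribociclib 300, Gip had 10.05, 11.12 and 11.28, and only replicate A lay well under the vehicle arrays, so the difference of -0.53 (SE 0.36) did not pass (limma adjusted p = 0.415). Palbociclib gave means of 11.24 ± 0.12 at 100 mg/kg/day and 11.78 ± 0.19 at 30 mg/kg/day, against 11.34 ± 0.15 with vehicle (SD, n = 3 each). All 3 arrays of palbociclib 30 lay above the vehicle arrays, and the difference of 0.44 had a limma adjusted p of 0.998. The group means thus ran, from low to high, abemaciclib 120, ribociclib 300, palbociclib 100, vehicle, abemaciclib 36 and palbociclib 30, and palbociclib 100, vehicle and abemaciclib 36 differed by less than the SD of the abemaciclib 36 arrays (0.28). Over the 18 arrays the genes most like Gip were Arap3 (Pearson r = 0.92), Slc30a2 (0.91) and Cd7 (0.89), given as a description of arrays that share groups and normalization.

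Sct, the gene of secretin, which prompts the pancreas to release bicarbonate, lay on opposite sides of vehicle with abemaciclib 120 and ribociclib 300. Its log2 signals were 8.30, 8.23 and 8.16 with abemaciclib 120, 9.34, 9.68 and 9.64 with ribociclib 300, and 8.81, 8.65 and 9.00 with vehicle. The arrays of abemaciclib 120 were all below the vehicle arrays and those of ribociclib 300 were all above them. Against vehicle the differences were -0.59 (SE 0.27, limma adjusted p = 0.154) with abemaciclib 120 and 0.74 (SE 0.27, limma adjusted p = 0.139) with ribociclib 300, and neither passed. Set directly against each other, abemaciclib 120 was lower than ribociclib 300 by -1.33 log2 units (2.51-fold lower, SE 0.27, 95% interval -1.90 to -0.75, limma adjusted p = 0.00269). These groups shared a carrier but were dosed at different amounts of different compounds. The call held in each fit with 1 array of either group left out, with limma adjusted p-values up to 0.0143.

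In that comparison 2 of the 9 measured genes passed, both lower with abemaciclib 120, where 27.2% of all genes passed (17.2% higher and 10% lower). The other was Gip, lower by -1.12 log2 units (SE 0.36, limma adjusted p = 0.0291), although abemaciclib 120 replicate C (10.75) lay above ribociclib 300 replicate A (10.05). Its limma adjusted p was between 0.101 and 0.148 without abemaciclib 120 replicate A or B or without ribociclib 300 replicate B or C. Between the abemaciclib doses Sct differed by -0.85 for 120 over 36 mg/kg/day (limma adjusted p = 0.0666), with arrays of 9.03, 9.32 and 8.90 at the lower dose. Palbociclib gave 8.35, 9.18 and 9.11 at 100 mg/kg/day and 8.40, 8.39 and 9.43 at 30 mg/kg/day, which spread across the vehicle values. The genes most like Sct over the 18 arrays were Sbds (r = 0.83), Sctr (0.81), which encodes the secretin receptor, and Fnip1 (0.81). Sctr was dim, at 3.82 to 4.48, under the array medians of 5.40 to 5.51. The arrays share groups and normalization, and these values are a description.

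**Figure D3:**
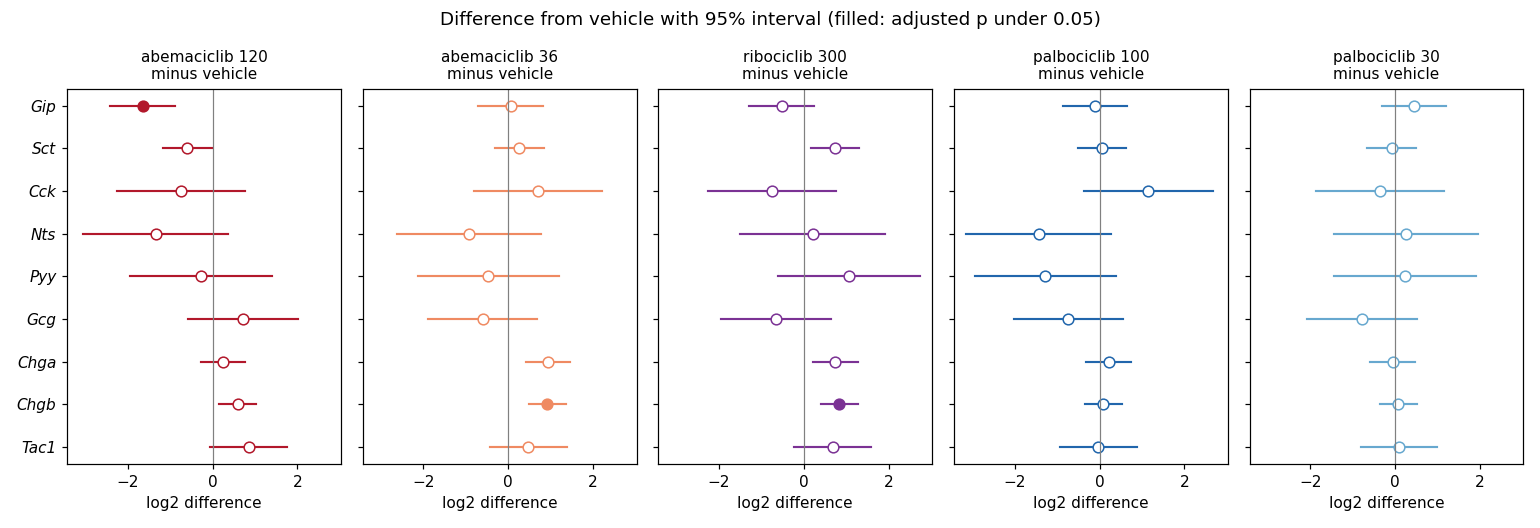
Log2 difference from vehicle (horizontal axes) of each measured enteroendocrine gene (rows) for the 5 treated groups, with 95% intervals from limma. Filled points passed at an adjusted p under 0.05: Gip with abemaciclib 120, and Chgb with abemaciclib 36 and with ribociclib 300.

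Nts, Pyy, Gcg and Cck, the members best known for their place along the gut, did not pass across the 6 groups and spread widely between single arrays. Nts encodes neurotensin, Pyy encodes peptide YY, and Gcg encodes proglucagon, the source of the glucagon-like peptides. Cck encodes cholecystokinin. In 2 arrays, abemaciclib 36 replicate A and palbociclib 100 replicate B, the signals of Nts, Pyy and Cck stood apart from the other 16. Nts was 8.68 and 9.22 log2 units on them, where the other 16 arrays ran from 10.07 to 12.94. Pyy was 4.76 and 4.95, where the others ran from 6.50 to 9.29. Cck went the other way, at 11.01 and 11.21, where the others ran from 7.30 to 9.04. Gcg was lowest on abemaciclib 36 replicate A at 7.09 and was 7.78 on palbociclib 100 replicate B, which lay inside the 7.23 to 10.53 of the others.

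Some genes of the proximal gut were also high on these arrays. Of 11 listed proximal genes other than the hormones, 4 were above the other 16 arrays on both of them (Pdx1, Onecut2, Slc11a2 and Slc40a1), 3 on only 1 of them (Gata4, Cybrd1 and Tff2) and 4 on neither (Fabp1, Heph, Ada and Bco1). Among the proximal hormone genes, Gip (11.21 and 11.23) and Sct (9.03 and 9.18) lay inside the range of the other arrays. Ghrl, the gene of ghrelin, was 11.11 on abemaciclib 36 replicate A and 10.31 on palbociclib 100 replicate B, against at most 7.79 on the other 16 arrays. Pdx1, a transcription factor of duodenum and pancreas, was 6.21 and 6.73, against at most 4.61. Onecut2, a duodenal factor, was 9.65 and 10.17, against at most 8.37 (vehicle replicate A), and the iron transporter genes Slc11a2 (12.58 and 10.19, against at most 8.82) and Slc40a1 (11.86 and 12.03, against at most 10.99) were high as well. Fabp6, the ileal bile acid binding protein gene, was 4.10 and 4.43, where the other arrays ran from 4.16 (palbociclib 100 replicate A) to 14.24. Low Fabp6 was therefore not particular to these arrays. Of the other listed distal genes, Slc10a2, Fgf19, Nr1h4, Amn and Gpr15lg lay inside the range of the other arrays on both. Cubn on abemaciclib 36 replicate A and Slc51a on palbociclib 100 replicate B lay below that range. Over the 18 arrays the gene most like Cck was Ghrl (r = 0.97). Nts and Pyy correlated at 0.83, and Nts and Cck at -0.72, over the 18 arrays, both of these outlying ones included, and the arrays share groups and normalization. Whether the site of sampling differed was not tested.

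**Figure D4:**
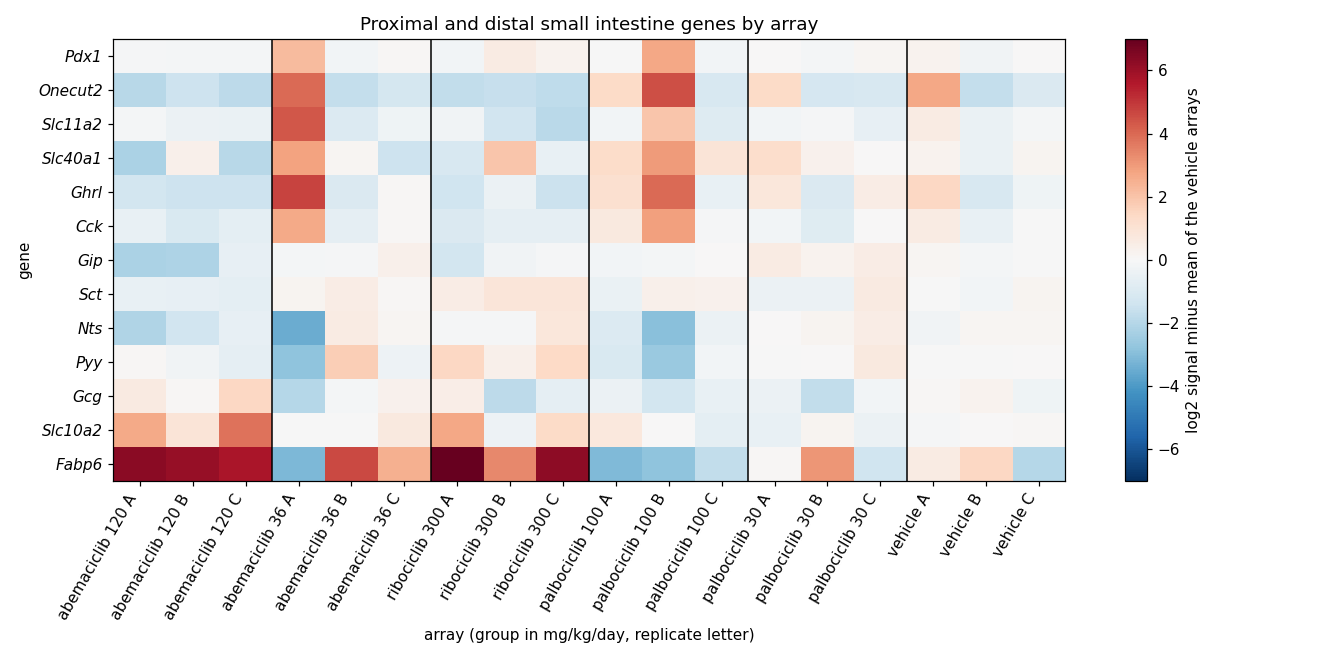
Log2 signal minus the mean of the vehicle arrays (colour) on each array (columns, groups split by lines). Rows are selected genes of the proximal gut (upper), the measured hormone genes (middle) and selected distal genes (lower). Abemaciclib 36 replicate A and palbociclib 100 replicate B are high for Pdx1, Onecut2, Ghrl and Cck and low for Nts and Pyy. Pdx1 and further genes high on these arrays were added after their values were seen, so the upper rows do not represent all listed proximal genes. Of the 11 listed, 4 were above the other 16 arrays on both of them, 3 on only 1 and 4 on neither. Fabp6 is high on all arrays of abemaciclib 120 and ribociclib 300, and also on abemaciclib 36 replicates B and C and palbociclib 30 replicate B.

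No comparison of these 4 genes against vehicle passed. With abemaciclib 36, the arrays were 8.68, 12.75 and 12.30 for Nts, against 11.91, 12.29 and 12.30 with vehicle, and 4.76, 9.29 and 7.21 for Pyy, against 7.55, 7.53 and 7.58 with vehicle. Leaving out replicate A turned the sign of each difference. For Nts it was -0.92 log2 units with that array and 0.36 without both outlying arrays, and for Pyy it was -0.47 with and 0.69 without. The Pyy value of 0.69 rests on replicate B (9.29), the highest of all arrays, as replicate C (7.21) lay below vehicle. Cck changed from 0.71 with replicate A to -0.27 without it, and Gcg from -0.60 to 0.09. With palbociclib 100 the differences kept their sign without both arrays, and Nts was lower by -1.43 with and -0.67 without them, and Pyy by -1.27 with and -0.61 without them, none of which passed.

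With abemaciclib 120, Nts had 10.07, 10.80 and 11.61, all under the 11.91 to 12.30 of vehicle, for a difference of -1.34 (SE 0.80, limma adjusted p = 0.298). With only these 2 groups in the fit the same difference had a limma adjusted p of 0.0262. With both outlying arrays left out, a choice made after the values were seen that removes the lowest Nts values, it was 0.0130 (limma). Gcg on the abemaciclib 120 arrays was 9.68, 9.17 and 10.53, against 9.16, 9.32 and 8.76 with vehicle, a difference of 0.72 (SE 0.61, limma adjusted p = 0.496). Cck was 7.81, 7.30 and 7.69 with abemaciclib 120, against 8.90, 7.85 and 8.30 with vehicle, a difference of -0.75 (SE 0.71, limma adjusted p = 0.554). The Cck groups did not overlap, though abemaciclib 120 replicate A (7.81) lay close under vehicle replicate B (7.85), and the Pyy groups overlapped.

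Ribociclib 300 had the highest Pyy mean, 8.62 ± 0.62, against 7.55 ± 0.02 with vehicle (SD, n = 3 each). Its Pyy arrays of 9.00, 7.90 and 8.95 were all above the vehicle arrays, and the difference was 1.06 (SE 0.79, limma adjusted p = 0.457). Set directly against ribociclib 300, abemaciclib 120 was lower for Nts by -1.54 (limma adjusted p = 0.161) and for Pyy by -1.33 (limma adjusted p = 0.215), with no overlap of arrays for either gene. Without both outlying arrays these limma adjusted p-values were 0.00526 and 0.0425. That choice was made after the values were seen and removes the lowest Nts and Pyy values, which belong to other groups. It narrows the shared spread and leaves these differences unchanged. The limma adjusted p was 0.405 for Nts without abemaciclib 120 replicate A, and 0.384 for Pyy without ribociclib 300 replicate C. Gcg went the opposite way, higher by 1.38 with abemaciclib 120 than with ribociclib 300 (limma adjusted p = 0.102), so the distal hormone genes did not share a direction there.

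Tac1, the tachykinin precursor gene, is used by enteroendocrine cells and by enteric neurons. It had log2 signals of 6.39, 6.42 and 8.38 with abemaciclib 120, against 6.04, 6.41 and 6.21 with vehicle. Replicate C alone was high, the groups overlapped, and the difference of 0.85 (SE 0.43) had a limma adjusted p of 0.199. With ribociclib 300 it had 6.59, 7.03 and 7.06, all above the vehicle arrays, and the difference of 0.68 (SE 0.43) had a limma adjusted p of 0.380. Of 19 other markers of enteric neurons and glia, none passed against vehicle in any group, and 18 lay below the gene median of every array. Their mean lay between 4.38 and 4.45 with abemaciclib 120, between 4.55 and 4.67 with ribociclib 300, and between 4.45 and 4.58 with vehicle.

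None of the 9 genes passed with palbociclib at either dose by limma, where 0% of all genes passed at 100 mg/kg/day and 0% at 30 mg/kg/day. At an unadjusted p under 0.05, 0 of the 9 passed at either dose, where 1023 genes passed at 100 and 357 at 30 mg/kg/day. The 95% intervals against vehicle at 100 mg/kg/day were -0.35 to 0.53 log2 units for Chgb and -0.87 to 0.65 for Gip, and at 30 mg/kg/day they were -0.36 to 0.52 for Chgb and -0.32 to 1.20 for Gip. Those for Nts and Pyy were far wider, -3.14 to 0.27 and -2.94 to 0.39 at 100 mg/kg/day. No gene passed between the 2 doses of palbociclib either (0% of all genes), where Nts differed by -1.68 and Pyy by -1.50 for 100 over 30 mg/kg/day with palbociclib 100 replicate B included.

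The median difference of the 9 genes was 0.68 log2 units for ribociclib 300 over vehicle, with 6 of 9 above 0 and the median of all genes at 0.00. It was 0.26 for abemaciclib 36 over vehicle (6 of 9 above 0, all genes 0.01) and -0.27 for abemaciclib 120 over vehicle (4 of 9 above 0, all genes -0.02). For palbociclib 100 and 30 over vehicle it was -0.03 and 0.08. The doses and compounds differ, and the groups share 1 set of vehicle arrays, so these medians are given side by side only.

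Other genes of the enteroendocrine lineage passed against vehicle only with abemaciclib 120, the group in which 18% of all genes passed, against 2.08% with abemaciclib 36, 3.73% with ribociclib 300 and 0% with palbociclib at either dose. Of 13 other enteroendocrine peptide and amine genes, 1 rose and 2 fell with abemaciclib 120 against vehicle, a share near that of all genes (9.6% higher and 8.41% lower). Ddc, the decarboxylase that completes serotonin and dopamine synthesis, averaged 10.36 ± 0.21 with abemaciclib 120 and 7.83 ± 0.50 with vehicle (SD, n = 3 each), a rise of 2.53 log2 units (limma adjusted p = 0.00471). Without passing, Ddc was also above all vehicle arrays (at most 8.20) with abemaciclib 36 (10.31, 8.49 and 10.00) and palbociclib 100 (9.18, 10.57 and 9.12). In both groups the outlying array was the highest. Ribociclib 300 and palbociclib 30 overlapped vehicle for Ddc. Maob, a monoamine oxidase that breaks amines down, averaged 10.58 ± 0.77 with abemaciclib 120 and 12.27 ± 0.19 with vehicle, a difference of -1.70 (limma adjusted p = 0.000615). Gast, the gastrin gene, was dim at 4.64 ± 0.36 with abemaciclib 120 and 5.51 ± 0.15 with vehicle and passed narrowly at -0.87 (limma adjusted p = 0.0495). Ddc and Maob are also made by enterocytes, so neither reads enteroendocrine cells alone. None of the 13 passed with abemaciclib 36, ribociclib 300 or palbociclib at either dose.

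Sst, the somatostatin gene of D cells, had 7.35, 7.23 and 7.07 with abemaciclib 120, against 8.24, 7.56 and 8.11 with vehicle. The groups did not overlap, and the difference of -0.75 (SE 0.27) had a limma adjusted p of 0.0644. Against abemaciclib 36, whose arrays were 8.31, 8.32 and 8.42, Sst was lower with abemaciclib 120 by -1.13 (limma adjusted p = 0.0168), and against ribociclib 300 it was lower by -0.92 (limma adjusted p = 0.0195). Ghrl differed by -1.39 with abemaciclib 120 over vehicle (SE 1.21, limma adjusted p = 0.506), within the spread that the outlying arrays give it.

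Of the factors that drive the lineage, 0 of 15 passed against vehicle with any compound by limma, and 13 of the 15 lay below the gene median of every array. Neurog3, which commits a progenitor to the endocrine lineage, averaged 4.75 ± 0.21 with abemaciclib 120, 4.65 ± 0.09 with abemaciclib 36 and 4.68 ± 0.14 with ribociclib 300, against 4.68 ± 0.26 with vehicle (SD, n = 3 each). Neurod1, which acts after it, averaged 6.09 ± 0.10 with abemaciclib 120 and 6.20 ± 0.04 with vehicle. A probe set at this level may not see a factor made by rare cells, and no detection call was used here.

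Of 22 other genes of prohormone processing and secretory granules, 1 passed with abemaciclib 120 against vehicle, where 18% of all genes did, and 0 with each other group. It was Ptprn2, a protein of the granule membrane, at 7.56 ± 0.27 with abemaciclib 120 and 6.54 ± 0.13 with vehicle, a rise of 1.02 (limma adjusted p = 0.00152). The median difference of the 22 was 0.24 with ribociclib 300, 0.18 with abemaciclib 36 and 0.06 with abemaciclib 120, beside 0.00, 0.01 and -0.02 for all genes. Scg2, secretogranin 2 of the same protein family as the chromogranins, had 7.21, 6.97 and 8.03 with ribociclib 300, against 6.01, 6.14 and 6.16 with vehicle. Those arrays did not overlap, and the difference of 1.30 (SE 0.44) had a limma adjusted p of 0.113. Pcsk1, which cleaves prohormones, had no named probe set here. All 7 measured nutrient receptors of these cells lay below the gene median of every array, and 0 passed against vehicle.

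Among 22 receptors and degrading enzymes of the hormones, 2 fell with abemaciclib 120 against vehicle, near the 8.41% of all genes that fell, and 0 passed with each other group. Ace, a peptidase of the brush border, fell by 2.06 log2 units (limma adjusted p = 0.000239), at 10.49 ± 0.63 with abemaciclib 120 and 12.55 ± 0.48 with vehicle. Slc6a4, the serotonin transporter gene, fell by 0.74 (limma adjusted p = 0.0103). Dpp4, which inactivates the incretins, averaged 12.54 ± 0.14 with abemaciclib 120 and 12.97 ± 0.15 with vehicle, a difference of -0.42 with a limma adjusted p of 0.0604. Of 13 enterocyte markers, 2 fell in the same comparison, of which Treh fell by 2.96 (limma adjusted p = 0.000625) and Apoa1 fell by 0.27 (limma adjusted p = 0.0341).

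Markers of gut region, of other cells and of RNA quality are set beside these results. Against vehicle, 9.6% of all genes rose and 8.41% fell with abemaciclib 120, and 0.999% rose and 2.74% fell with ribociclib 300. With abemaciclib 120 against vehicle, 4 of 8 distal genes other than the hormones rose, Fabp6 by 6.05 log2 units (limma adjusted p = 0.0123), Gpr15lg by 3.88 (limma adjusted p = 0.000569), Slc10a2 by 2.44 (limma adjusted p = 0.0182) and Nr1h4 by 1.64 (limma adjusted p = 0.0241), while Amn fell by 1.44 (limma adjusted p = 0.00639). Of 11 proximal genes other than the hormones none passed with abemaciclib 120, and Gata4, a factor of the proximal gut, differed by -0.44 (limma adjusted p = 0.601). Their mean lay between 7.98 and 8.66 with abemaciclib 120 and between 8.41 and 9.28 with vehicle. With ribociclib 300 against vehicle none of the 8 distal genes passed, Fabp6 differed by 5.53 (limma adjusted p = 0.0584), and of the 11 proximal genes 1 passed, Bco1, which fell by 2.39 (limma adjusted p = 0.0379). Gata4 differed by -1.57 (limma adjusted p = 0.0694).

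Of 11 proliferation genes, 9 rose with abemaciclib 120 against vehicle, where 9.6% of all genes rose. The mean of the 11 lay between 8.14 and 8.67 with abemaciclib 120 and between 5.72 and 6.41 with vehicle. Of 15 pancreas genes, 13 lay below the gene median of every array, and Ctrc rose by 2.20 with abemaciclib 36 (limma adjusted p = 0.0029) and by 1.58 with ribociclib 300 (limma adjusted p = 0.0155), both groups in which Chgb rose. Ppy, the pancreatic polypeptide gene, rose by 0.54 with ribociclib 300 (limma adjusted p = 0.0286), at 5.16 ± 0.24 with ribociclib 300 and 4.62 ± 0.10 with vehicle (SD, n = 3 each). The mean of the 15 lay between 4.77 and 4.87 with abemaciclib 36, between 4.76 and 4.99 with ribociclib 300, and between 4.53 and 4.70 with vehicle. Of 8 smooth muscle markers none passed against vehicle in any group, and their mean reached from 6.53 to 7.89 with ribociclib 300 and from 6.22 to 6.47 with vehicle.

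Of 15 mast cell markers, 2 passed with abemaciclib 120 against vehicle, where 18% of all genes passed (9.6% higher and 8.41% lower). Mcpt9 fell by 4.77 (limma adjusted p = 8.4e-05) and Mcpt8 fell by 0.47 (limma adjusted p = 0.0158). With abemaciclib 36, 1 passed, where 2.08% of all genes did, and Mcpt9 fell by 2.56 (limma adjusted p = 0.0325). With abemaciclib 120 against vehicle 1 of 8 tuft cell markers fell, and of 10 goblet cell markers 2 rose and 1 fell, beside the same shares of all genes. The gap between the 3-prime and 5-prime beta-actin control probe sets, which widens as RNA breaks down, was 1.05, 0.91 and 0.86 log2 units with abemaciclib 120, 0.53, 0.62 and 0.80 with abemaciclib 36, 0.41, 0.40 and 0.90 with ribociclib 300, and 0.65, 0.79 and 0.57 with vehicle. With that gap as a covariate Gip kept its call with abemaciclib 120 at -1.80 (limma adjusted p = 0.0130), and Chgb kept its call with abemaciclib 36 (0.94, limma adjusted p = 0.0202) and ribociclib 300 (0.92, limma adjusted p = 0.0220). The Chga difference with abemaciclib 120 turned to -0.11. The part of gut region, proliferation, pancreas, smooth muscle and mast cell genes in the results was not tested.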

How the data were processed

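The authors deposited log2 signals for every probe set of each array. Affymetrix Expression Console, Transcriptome Analysis Console and RMA were used per the submitters' processing notes, which name no version. As usually run, RMA corrects background, equalises arrays and summarises probes, so a change in total RNA per cell would not be visible. Arrays were grouped by the treatment label. Of 31099 probe sets, 20826 carried a single gene symbol and entered the tests, and the 57 controls, the 436 with more than 1 symbol and the 9780 without one did not. Each of 14217 genes was taken at its probe set of highest mean.

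Group means were compared by limma 3.58.1 (R 4.3.3), in a single fit of the 18 arrays that leaves 12 residual degrees of freedom (intensity trend, two-sided, Benjamini-Hochberg over all genes, threshold 0.05), and the fit was tested on simulated data. Tables and figures were made in Python 3.11.15 (pandas 2.3.3, matplotlib 3.10.9). The members, the gene lists and the rule for named genes (all members, list genes passing against vehicle up to 6 per list, some fixed genes, and the 3 likest genes of members passing in a comparison) were chosen with earlier results of these data known; Cck's likest gene, Pdx1 and further genes high on the outlying arrays, and Dpp4 were added after their values were seen. The labels do not state that replicate letters pair arrays. Same-letter correlations of deviations from group means were 0.126, 0.593 and 0.300 between the abemaciclib doses. They were 0.255, 0.038 and 0.199 between the palbociclib doses, and -0.026, -0.310 and 0.202 between vehicle and ribociclib 300. Arrays of different letters were not compared, so a pairing was not tested. Array number limits the precision. Alternatives were another quantile step, median centring, a filter on genes under the percentile 30 of mean signal, other probe set rules, no trend, only the compared groups, a replicate block, RNA quality and each array left out.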

Additional observations from a re-analysis of the deposited data

How the results depend on the processing

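Of 1152 recomputed member differences, 1044 kept their direction and side of the threshold, 61 turned sign, 21 lost and 26 gained a call. No called difference turned sign. Members passing for abemaciclib 120 over vehicle (1) became 2 with a further quantile step or without dim genes. They also became 2 without the intensity trend or without both outlying arrays, and 4 with only those groups fitted. All genes passing there were 2560 in the main fit, 2628 with the quantile step, and 2408 of the 9952 left without dim genes. The count of all genes with only those groups fitted is not given here, so the 4 is no result about the members. For abemaciclib 36 over vehicle (1) they became 2 with the quantile step, median centring, no dim genes, the RNA quality covariate or the replicate block, in which Chga joined (limma adjusted p = 0.0466), 0 to 0 with 1 array left out, and 0 without both outlying arrays. For ribociclib 300 over vehicle (1) they became 2 with centring or the covariate, 0 with only those groups, and 0 to 2 with 1 array left out. For abemaciclib 120 over 36 (1) they became 2 with the quantile step, the covariate or without both outlying arrays, 3 with centring, 0 with only those groups, and 0 to 1 with 1 array left out. For abemaciclib 120 over ribociclib 300 (2) they became 1 with only those groups, 4 without both outlying arrays, and 1 to 4 with 1 array left out. The count of all genes without both outlying arrays is not given here for this comparison, so that 4 is no result about the members either. The replicate block changed no other count of members.

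The Chga difference for abemaciclib 120 over vehicle was -0.11 with the covariate. For abemaciclib 36 over vehicle, leaving out replicate A or both outlying arrays gave 0.36 for Nts, 0.69 for Pyy, -0.27 for Cck and 0.0862 for Gcg. With 1 array left out these ran from -1.68 to 0.36 for Nts, -1.57 to 0.69 for Pyy, -0.27 to 1.37 for Cck and -1.05 to 0.0862 for Gcg. The replicate block, which rests on a pairing that the labels do not state, left Gip called for abemaciclib 120 over 36 (limma adjusted p = 0.00573). It changed no call of that comparison among the members.

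Median centring moved the median of all genes by -0.28 to 0.18 across comparisons. Higher calls then made up 44.0% against 53.3% of calls for abemaciclib 120 over vehicle, 36.5% against 24.0% of calls for abemaciclib 36 over vehicle, 57.9% against 26.7% for ribociclib 300 over vehicle, 40.6% against 63.5% for abemaciclib 120 over 36, and 24.6% against 63.2% for abemaciclib 120 over ribociclib 300. With the quantile step the shares for abemaciclib 36 and ribociclib 300 over vehicle were 35.1% and 37.8%. All genes passing ranged, with 1 array left out, from 1349 to 2497 for abemaciclib 120 (2560 with all arrays), 46 to 531 for abemaciclib 36 (296) and 120 to 1317 for ribociclib 300 (531) over vehicle, from 397 to 1344 for abemaciclib 120 over 36 (1079) and from 2118 to 4781 for abemaciclib 120 over ribociclib 300 (3865). With the covariate they were 1596 for abemaciclib 120 over vehicle, 436 over abemaciclib 36 and 1408 over ribociclib 300. With only the compared groups they were 29 for ribociclib over vehicle, 309 for abemaciclib 120 over 36 and 1378 over ribociclib, and with centring 6987 for the last. Without both outlying arrays they were 29 for abemaciclib 36 over vehicle and 388 for abemaciclib 120 over 36. Across all 6 groups they were 3212, 1246 with the covariate and 1580 to 4138 with 1 array left out. The counts of 0 for palbociclib became at most 1. The cause of these shifts was not tested. Dim genes rest on signals not shown to be above background.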
